A study of Mus musculus with 45 samples.

Results

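Scaffolds from mice bearing 4T07 mammary tumors were compared with scaffolds from healthy control mice, 3 libraries against 3, which are 6 of the 45 samples of the series. The comparison took every gene with more than 10 counts over these 6 libraries, which left 19638 gene symbols of 55367. The scaffolds are porous polycaprolactone implants, a synthetic site into which host cells move. All mice were female BALB/c animals that received the implant under the skin at 7 to 8 weeks of age, and the tissues were taken on day 14 after tumor inoculation. The 4T07 group had 4T07 cells injected into a mammary fat pad 2 weeks after implantation, and the control group carried the implant without a tumor. The 4T07 line, like its sisters 67NR and 4T1, was derived from 1 spontaneous mammary tumor of a BALB/cfC3H mouse, and the study describes 67NR as not metastatic, 4T07 as invasive but not metastatic and 4T1 as metastatic. The 67NR and 4T1 groups were treated as the 4T07 group was, each tumor type is 1 cell line, and lung, spleen and primary tumor were sequenced from the same groups. The libraries are named here by the numbers of the deposited table, 1, 2 and 3 for the controls and 22, 23 and 24 for 4T07. The question was how a growing 4T07 tumor changes gene expression at a distant implant, and whether library 22 alone carries the change.

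Neutrophils are made in the bone marrow, and their granule proteins are transcribed in a fixed order. Promyelocytes make the enzymes of primary granules, such as elastase and myeloperoxidase. Myelocytes and metamyelocytes then make the proteins of secondary and tertiary granules, and mature neutrophils in blood have largely stopped transcribing both sets. Tumors of the 4T1 family are known for driving the host to release immature myeloid cells and for raising blood cell formation in the spleen. An implant of this kind is populated mainly by macrophages, fused giant cells and fibroblasts, with a smaller number of other leukocytes.

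The 6 libraries held between 4767440 and 8175380 counts, library 22 being the deepest and control library 1 the shallowest, so that the floor of 3 counts per library used for genes with none is 0.367 to 0.629 counts per 1000000 (CPM). These limits and all counting intervals cover counting error only. Genes of macrophages and fibroblasts were abundant in all 6, with Gpnmb, a glycoprotein of lipid-loaded macrophages, at 6407 to 7821 CPM in controls and 7157 to 9871 CPM in 4T07 scaffolds, and Col1a1, a chain of type I collagen, at 2049 to 2854 and 2471 to 3395 CPM. Mitochondrially encoded genes took 8.98 to 11.6% of the counts in controls and 6.55 to 6.94% in 4T07 scaffolds, and ribosomal protein genes took 5.14 to 5.599% and 2.67 to 4.19%. In a principal component analysis of the 12 scaffold libraries of all 4 groups, the 3 4T07 libraries lay at 33.7 to 37.1 on the first component, which held 42.4% of the variance, and the controls at -40.2 to -16.5.

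Of the 19638 genes tested, 848 were higher in 4T07 scaffolds (4.32%) and 831 were lower (4.23%), 1679 in all (8.55%). A gene was called when the edgeR quasi-likelihood test gave a Benjamini-Hochberg adjusted p under 0.10 together with a fold change over 2, the study's own limits for scaffolds. Adjusted p-values below are from this test, over all 19638 genes, and changes are log2(4T07/control) with their standard error (SE). The 3 and 3 libraries did not overlap in 7032 genes (35.8%). The median change of all genes was 0.03. When libraries were scaled by their totals in place of TMM, the median moved to 0.19 and the calls to 1264 higher and 540 lower, so that the share of higher calls went from 50.5 to 70.1%. The 12 largest fitted increases among called genes with a mean of at least 5 CPM and no overlap were Rhox5, Lor, Elane, Fcnb, Prg2, Ms4a3, Epx, Mpo, Ngp, Camp, 2210010C04Rik and Prtn3. These are described with their gene lists, except 2210010C04Rik, which had 0.839, 0 and 0 CPM in controls and 29.0, 6.09 and 4.50 CPM in 4T07 scaffolds (5.55, adjusted p = 0.00445), 4.24 without library 22 and 4.92 and 4.91 without control libraries 2 and 3, while without control library 1 the controls hold no count. By the same test 67NR scaffolds had 0 calls against controls (0%, with 512 genes at an unadjusted p under 0.05). For 4T1 scaffolds there were 5 calls (0.0255%), with 2572 genes at an unadjusted p under 0.05. So few calls do not show that 4T1 scaffolds were like controls.

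Without library 22, 1623 genes were called (8.26%), 724 of them higher and 899 lower. Of the 1679 genes, 1231 were called in both fits, 448 were lost (26.7%), and 392 others were gained. The lost genes were 287 of the higher ones and 161 of the lower ones. Leaving out each of the other 5 libraries lost between 374 and 588 genes, the most for control library 1. Library 22 was the highest of the 3 4T07 libraries in 392 of the higher genes, library 23 in 148 and library 24 in 308. Libraries 23 and 24 both lay outside the range of the controls, on the called side, in 782 of the higher genes (92.2%). Among the lower genes this held for 791 (95.2%). The calls rest on these libraries too, so these shares only describe the called genes. The median change of the higher genes went from 1.49 to 1.38 without library 22 and that of the lower genes from -1.35 to -1.45.

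**Figure D1:**
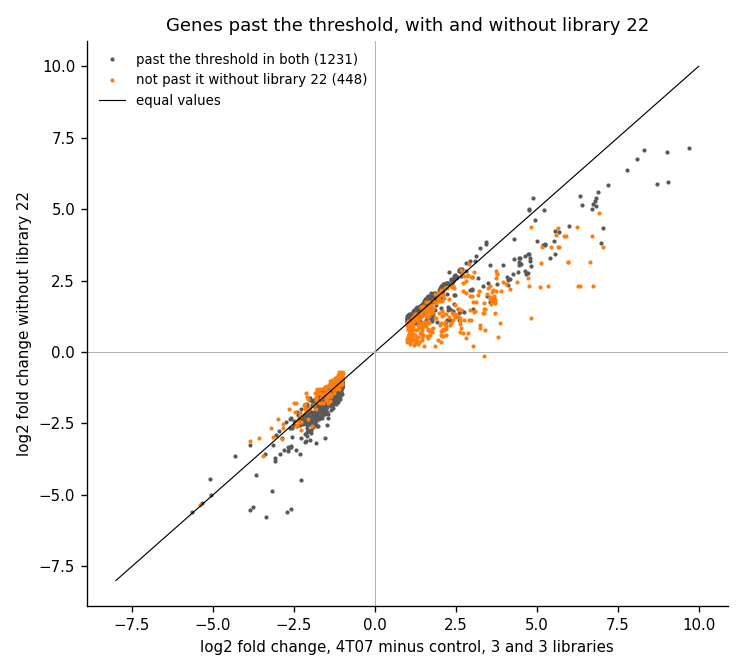
Each point is 1 of the 1679 genes called between 4T07 and control scaffolds, with its log2 fold change from all 6 libraries on the horizontal axis and from the 5 libraries without number 22 on the vertical axis. The 448 orange genes did not pass the threshold without library 22, and most points lie close to the line of equal values, while genes with the largest increases lie below it.

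The excess in library 22 differed between gene lists, and the medians below rest on 5 to 23 genes each. Among expressed members of each list, the ratio of library 22 to the mean of libraries 23 and 24 had a median of 7.11 for primary granule genes, 6.85 for B-cell genes, 5.51 for erythroid genes and 2.96 for cell cycle genes. It was 2.30 for secondary granule genes, 0.779 for macrophage genes and 0.799 for fibroblast genes. Between libraries 23 and 24 the same medians were 1.68, 1.45, 1.87, 1.16, 1.21, 0.978 and 0.965. Eosinophil and basophil genes had a median of 4.87 for library 22 and 1.42 between libraries 23 and 24. Plasma cell genes had 1.84 and 1.08. Library 22 was also the highest 4T07 library in 76 of 84 ribosomal protein and 63 of 83 respiratory chain genes, lists described below. The same held for 10 of 13 T-cell, 8 of 12 dendritic cell, 2 of 14 macrophage and 1 of 12 fibroblast genes. In tissue RNA, a larger number of cells of a type and more RNA per cell cannot be told apart.

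Primary granule genes rose as a group, and all 5 listed genes were called higher, where 4.32% of all genes were, and all 5 were also called without library 22. Their summed level was 4.20, 1.43 and 1.73 CPM in controls and 414, 75.1 and 44.3 CPM in libraries 22, 23 and 24. The median change of the 5 was 6.74, and 5.26 with Elane at its lower bound. Without library 22 it was 5.12, and 3.76 with Elane at its lower bound. The 250 bases before the RefSeq start of Elane and Mpo (GRCm38.p6) are shown as the stretch in front of the leading genes of the list, with the letters GGAAGT, found on either strand, in capitals.
Elane, chr10:79886062-79886311, plus strand: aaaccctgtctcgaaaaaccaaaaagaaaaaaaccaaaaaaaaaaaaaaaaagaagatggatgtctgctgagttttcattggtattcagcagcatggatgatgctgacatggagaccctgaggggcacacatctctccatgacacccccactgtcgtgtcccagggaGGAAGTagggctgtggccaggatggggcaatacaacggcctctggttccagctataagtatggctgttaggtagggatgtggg
Mpo, chr11:87793534-87793783, plus strand: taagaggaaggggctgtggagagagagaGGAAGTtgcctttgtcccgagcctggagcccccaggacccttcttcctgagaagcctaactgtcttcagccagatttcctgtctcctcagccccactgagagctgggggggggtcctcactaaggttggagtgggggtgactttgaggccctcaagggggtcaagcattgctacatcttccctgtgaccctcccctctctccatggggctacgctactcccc
These letters stood in the windows of all 5 primary granule genes (Elane, Mpo, Prtn3, Ctsg and Ms4a3), in 6 of the 14 matched secondary granule genes, in 0 of the 6 matched erythroid genes, and in 19.7% of 32851 promoters of the same length. They were 1 of 5 letter sets searched, the others being TTGCNNAA, TTNCNNAA, which contains it, AGATAA and CACCC, and CACCC also stood in all 5 windows, against 52.0% of promoters. A match is a description of these letters and not of binding.

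Mpo, the myeloperoxidase of primary granules, had 1.05, 0.633 and 0.787 CPM in control libraries 1, 2 and 3 and 232, 40.9 and 24.4 CPM in 4T07 libraries 22, 23 and 24, a mean of 0.823 ± 0.210 against 99.1 ± 115 CPM (SD, n = 3 each). The groups did not overlap, and library 22 was far above 23 and 24, which were in turn far above every control. The change was 6.74 ± 1.05 (SE), adjusted p = 0.00131, and 5.17 without library 22. Elane, neutrophil elastase, had no count in any control and 27.6, 3.54 and 2.17 CPM in the 4T07 libraries, at least 21.2-fold higher against a floor of 3 counts in each control library (adjusted p = 0.0091), and at least 5.44-fold without library 22. Prtn3, proteinase 3, stood at 1.05, 0.317 and 0.472 CPM in controls and 59.0, 11.4 and 6.52 CPM in 4T07 scaffolds. Its change was 5.26 ± 0.96 (SE), adjusted p = 0.00285, and 3.76 without library 22. Ctsg, cathepsin G, had 0.472 to 1.68 CPM in controls against 7.61 to 54.9 CPM, a change of 4.74 ± 0.83 (SE), adjusted p = 0.00232, which was 3.43 without library 22 and 5.54 without control library 1. Ms4a3, a membrane protein of granulocyte and monocyte precursors, had 2 counts over the controls and 389 over the 4T07 scaffolds, a ratio of 172-fold, exact 95% counting interval 47.3 to 1426 (adjusted p = 0.00231). Its fitted change was 5.12 without library 22 and 6.23 and 6.21 without control libraries 2 and 3, and without control library 1 the controls hold no count. Fitted changes of genes with 3 or fewer control counts depend on the prior count of the fit. In each of these genes library 22 was highest, library 23 next and library 24 lowest of the 4T07 group.

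Secondary and tertiary granule genes followed, with 12 of 16 called higher, where 4.32% of all genes were. None was called lower, and 8 were called higher without library 22. The median change over the 16 was 2.36, and 1.66 without that library. The same 250-base windows are shown for Ltf and Ngp, with TTGCNNAA, on either strand, in capitals. These letters stood in 5 of the 14 matched windows of the list (Fcnb, Lcn2, Ltf, Mmp8 and Ngp), in 0 of the 5 primary granule windows, in 1 of the 6 erythroid ones, and in 9.56% of all promoters.
Ltf, chr9:111019042-111019291, plus strand: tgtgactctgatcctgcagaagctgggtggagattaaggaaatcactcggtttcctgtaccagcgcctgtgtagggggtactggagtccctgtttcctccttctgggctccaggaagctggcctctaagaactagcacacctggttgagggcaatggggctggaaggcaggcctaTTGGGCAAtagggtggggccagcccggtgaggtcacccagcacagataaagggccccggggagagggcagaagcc
Ngp, chr9:110419558-110419807, plus strand: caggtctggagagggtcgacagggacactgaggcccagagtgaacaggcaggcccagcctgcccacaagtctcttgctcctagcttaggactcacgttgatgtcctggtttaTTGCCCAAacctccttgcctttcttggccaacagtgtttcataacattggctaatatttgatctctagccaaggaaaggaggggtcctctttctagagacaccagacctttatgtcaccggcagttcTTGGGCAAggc
Ngp, a cathelicidin-like granule protein, had 1.68, 5.54 and 0.630 CPM in controls and 550.4, 134 and 74.6 CPM in 4T07 scaffolds. Every 4T07 library was above every control, by 6.38 ± 0.88 (SE), adjusted p = 0.000835, and by 5.15 without library 22 and 7.64 without control library 2, the highest control. Camp, the antimicrobial peptide cathelicidin, had 0.944 to 3.48 CPM in controls against 21.7 to 261 CPM (5.69, adjusted p = 0.00125), 4.19 without library 22 and 6.49 without control library 2. Ltf, the iron-binding lactoferrin, had 2.31, 1.11 and 1.102 CPM against 145, 28.3 and 16.0 CPM, with no overlap. Its change was 5.25 ± 0.85 (SE), adjusted p = 0.00156, and 3.77 without library 22. Fcnb, a secreted lectin of granulocyte precursors, had 2 counts over the controls and 501 over the 4T07 scaffolds, 222-fold, exact 95% counting interval 61.1 to 1836 (adjusted p = 0.00156), with fitted changes of 5.85 without library 22 and 6.61 without control library 3. Lcn2, the siderophore-binding lipocalin 2, rose, with 2.94 to 6.18 CPM in controls against 21.6 to 118 CPM (3.48, adjusted p = 0.00162), 2.42 without library 22.

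The smaller increases of this list were Mmp8, neutrophil collagenase (1.26, adjusted p = 0.00768), the leukotriene B4 receptor Ltb4r1 (1.77, adjusted p = 0.00298) and the chitinase-like Chil3 (2.59, adjusted p = 0.0142), each still called without library 22, where they stood at 1.01, 1.31 and 1.11. The other 4 calls ended there: Pglyrp1, a peptidoglycan-binding protein, went from 1.36 to 0.86, the surface protein Cd177 to a fitted 2.38, the arginine deiminase Padi4 from 2.12 to 2.01, and the integrin Itgb2l to a fitted 2.72. Pglyrp1 and Padi4 were also not called without library 24 (1.44 and 2.00), control library 2 (1.16 and 1.79) or control library 3 (1.04 and 1.77), nor was Itgb2l without control library 1 or 3 (3.25 to 3.45). Padi4 and Pglyrp1 stood at 2.97 and 1.99 without control library 1, and Cd177 at 4.84 without control library 2, which also holds the 1 control count of Itgb2l. Cd177 and Itgb2l had 3 and 1 counts over the 3 controls, and their count ratios were 22.7-fold, exact 95% counting interval 7.49 to 113, and 21.2-fold, exact 95% counting interval 3.46 to 873. Of the 4 genes not called, Lyz2, the lysozyme that macrophages also make in quantity, stood at 3146 to 4253 CPM in controls and 2355 to 2556 CPM in 4T07 scaffolds (-0.67, adjusted p = 0.026). Cybb, the catalytic subunit of the phagocyte oxidase, had 928 to 1175 and 1348 to 2128 CPM (0.56, adjusted p = 0.0636). Ly6g, the surface antigen used to gate mouse neutrophils, is in none of the lists and was looked up after values had been seen: it had 1.05, 7.13 and 1.42 CPM in controls and 113, 33.0 and 27.6 CPM in 4T07 scaffolds (3.96, adjusted p = 0.00162), 3.06 without library 22 and 5.33 without control library 2.

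**Figure D2:**
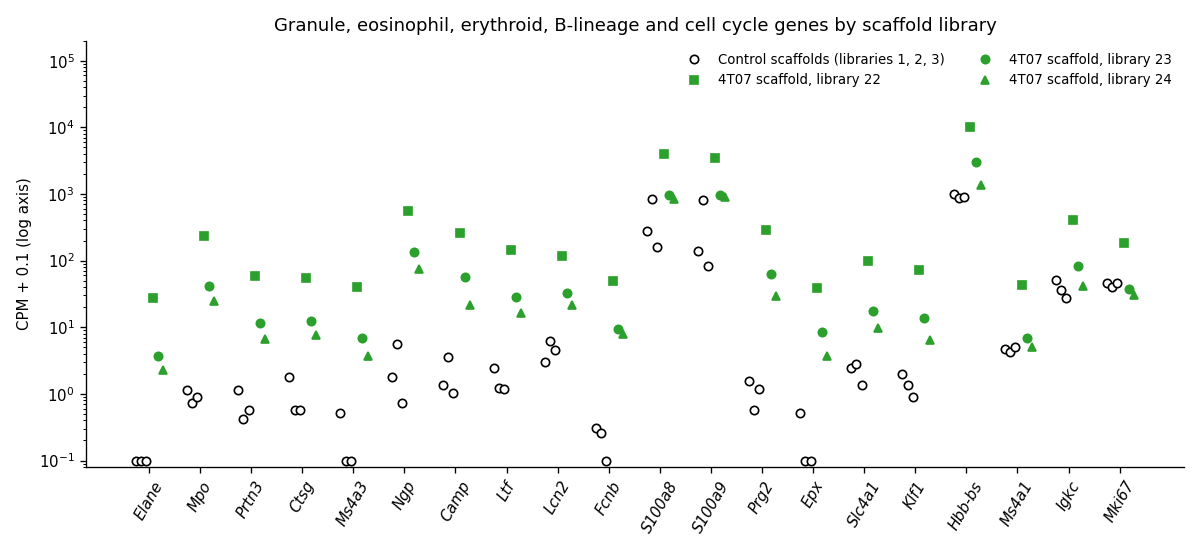
CPM plus 0.1 on a log axis for 20 genes in each scaffold library, with white circles for the 3 controls and green squares, circles and triangles for 4T07 libraries 22, 23 and 24. Library 22 is the highest 4T07 library for each gene drawn, and libraries 23 and 24 lie above all controls for granule genes such as Mpo and Ngp but among or near them for Ms4a1, Igkc and Mki67.

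Genes of mature neutrophils did not move one way. Of 15 listed, 3 were called higher and 3 lower, where 4.32 and 4.23% of all genes were. The other 9 were not called, and the median change was -0.27. S100a8, a calprotectin subunit, had 274, 843 and 161 CPM in controls 1, 2 and 3 and 3966, 952 and 832 CPM in the 4T07 libraries. Its partner S100a9 had 141, 811 and 83.0 CPM against 3445, 978 and 900.3 CPM. Control library 2 was the highest control for both, and for S100a8 it reached into the range of libraries 23 and 24. The changes were 2.00 ± 0.57 (SE), adjusted p = 0.0296, and 2.20 ± 0.65 (SE), adjusted p = 0.0343. Without library 22 they were 0.93 and 1.32, and 1.78 and 1.84 without control library 1, none of them called. With control library 2 left out they were 2.92 and 3.77. Retnlg, a resistin-like protein of neutrophils, rose by 1.45 (adjusted p = 0.0328), was not called without library 22 (0.87) and stood at 2.04 without control library 2. Csf3r, the receptor for granulocyte colony-stimulating factor, had 3.57, 13.8 and 4.09 CPM against 6.36, 4.91 and 8.54, and the chemokine receptor Cxcr2 7.97, 35.2 and 5.19 against 16.4, 8.85 and 13.2 (-0.27, adjusted p = 0.733, and -0.48, adjusted p = 0.556), so for both the 4T07 values lay inside the control range. Clec4d, a C-type lectin of myeloid cells, fell, with 91.3 to 176 CPM in controls against 42.9 to 59.5 CPM (-1.36, adjusted p = 0.00298), the call of this list that held without library 22 (-1.21).

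Inflammatory cytokine genes were high in control library 2, and their calls depended on it. Cxcl2, a neutrophil attractant, had 78.9, 697 and 53.4 CPM in the controls and 21.4, 50.1 and 54.5 CPM in 4T07 scaffolds, so that control library 2 stood far above the other 5 libraries. Its change of -2.85, adjusted p = 0.0379, was -0.84 without control library 2 and -2.52 without library 22, neither of them called. Il1b, interleukin-1 beta, had 90.4, 618 and 54.6 against 49.9, 74.5 and 133 CPM, and its change of -1.70, adjusted p = 0.0903, turned to 0.06 without control library 2 and was not called without library 22 or 23 either (-1.42 and -1.63). The list of neutrophil-attracting chemokines and growth factors had 4 of 10 called lower, where 4.23% of all genes were. Without library 22 there was 1, and also 1 when a trend with transcript length was removed. Cxcl1 (-1.59), the acute-phase gene Saa3 (-1.14) and Il1a, interleukin-1 alpha (-2.27) were not called without control library 2 (-0.43, -0.49 and -1.15), Cxcl1 and Saa3 also not without library 22 (-1.52 and -1.06) or 23 (-1.55 and -1.14). Cxcl3 (-2.41) lost its call without any of libraries 22, 23, 24, 1 and 2 (-2.64 to -1.86). Cxcl5, the remaining chemokine of this kind, had 50.6, 239 and 39.2 against 48.9, 76.9 and 81.1 CPM (-0.81, adjusted p = 0.364), and the growth factor Csf3 had at most 2 counts in any of the 6 libraries and was not tested.

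Of 8 genes of eosinophils and basophils 5 were called higher, where 4.32% of all genes were, and 5 without library 22. Prg2, the major basic protein of eosinophil granules, had 1.47, 0.475 and 1.102 CPM in controls and 289.6, 63.9 and 29.4 CPM in 4T07 scaffolds. All 4T07 libraries were above all controls, and library 22 was the highest. The change was 6.82 ± 1.01 (SE), adjusted p = 0.00116, and 5.41 without library 22. Epx, eosinophil peroxidase, had 2 counts over the controls, all in control library 1, and 381 over the 4T07 scaffolds, 169-fold, exact 95% counting interval 46.4 to 1397 (adjusted p = 0.00298), with fitted changes of 5.29 without library 22 and 6.22 and 6.198 without control libraries 2 and 3. Mcpt8 and Prss34, both basophil proteases, had no count in any control. Mcpt8 had 14.7, 3.54 and 2.49 CPM in the 4T07 libraries, at least 13.1-fold higher, and at least 5.73-fold without library 22. Prss34 had 12.7, 4.32 and 0.621 CPM, at least 11.2-fold higher, and at least 4.71-fold without library 22. Ear1, an eosinophil ribonuclease, had 1 count over the controls and 120 over 4T07, 106-fold, exact 95% counting interval 18.7 to 4229, with a fitted change of 4.42 without library 22. The receptors of mature eosinophils were not called: Siglecf had 5.03 to 7.28 CPM in controls and 7.95 to 10.4 CPM in 4T07 scaffolds (0.38, adjusted p = 0.508), Ccr3 8.08 to 11.1 and 11.5 to 18.8 (0.51, adjusted p = 0.172), and the interleukin-5 receptor gene Il5ra 0.420 to 1.27 and 0.983 to 2.57 (1.05, adjusted p = 0.303).

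Of 8 mast cell genes 3 were called lower and none higher, where 4.23% of all genes were called lower, and 3 were called lower without library 22. The other 5 were not called. Cpa3, mast cell carboxypeptidase, fell from 23.9, 22.5 and 31.2 CPM in controls to 15.2, 10.6 and 10.4 CPM (-1.25, adjusted p = 0.00123). The proteases Cma1 (-1.51, adjusted p = 0.00197) and Mcpt4 (-1.37, adjusted p = 0.00333) fell too. For all 3 the 4T07 libraries lay below every control, and the changes without library 22 were -1.44, -1.70 and -1.33. Tpsb2, a tryptase (-0.88, adjusted p = 0.0743), and Kit, the stem cell factor receptor (0.24, adjusted p = 0.572), were not called.

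Erythroid genes had 9 of 10 members called higher, where 4.32% of all genes were, and 5 without library 22. The summed level of the list was 2246, 1842 and 1945 CPM in controls and 25743, 7022 and 3214 CPM in libraries 22, 23 and 24. Hbb-bs, an adult beta-globin, had 985, 863 and 905 CPM in controls and 10226, 3010.3 and 1354 CPM in 4T07 scaffolds, and the alpha-globin Hba-a1 had 381, 334 and 393 CPM against 5324, 1460.5 and 545 CPM. Each 4T07 library was above each control, in the order 22, 23 and 24. The changes were 2.22 ± 0.54 (SE), adjusted p = 0.014, and 2.54 ± 0.68 (SE), adjusted p = 0.0219, against 1.11 and 1.31 without library 22, where Hba-a1 was not called. Globin gene pairs share near-identical sequence, and reads could have been split between them. Klf1, the erythroid transcription factor, rose, with 0.787 to 1.89 CPM in controls against 6.37 to 73.3 CPM (4.42, adjusted p = 0.00651), and the anion exchanger Slc4a1 was at 4.16, adjusted p = 0.00953, with 2.80 and 2.56 without library 22, both still called. Hbb-bt (2.54) stood at 1.27 without library 22 and was still called. Hba-a2 (2.47) and Car2 (1.77) ended as calls there, at 1.32 and 0.71. Alas2, the first enzyme of haem synthesis in red cells, was the member not called (2.67, adjusted p = 0.103). Epb42, a protein of the red cell membrane skeleton that was looked up after values had been seen, had 1.26, 0.9501 and 0.157 CPM against 36.2, 5.90 and 2.95 CPM (4.13, adjusted p = 0.00845), 2.36 without library 22.

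Platelet and megakaryocyte genes had 4 of 7 called higher, where 4.32% of all genes were, and 2 without library 22. Treml1, a platelet granule receptor, had 1.89, 2.53 and 1.73 CPM in controls and 20.4, 9.24 and 9.01 CPM in 4T07 scaffolds, where the 3 libraries were closer together than for the granule genes. Its change was 2.49 ± 0.40 (SE), adjusted p = 0.00156, and 2.00 without library 22. Ppbp, pro-platelet basic protein, rose, with 5.98 to 9.501 CPM in controls against 13.0 to 164 CPM (3.04, adjusted p = 0.0114), 1.52 without library 22. Gp9 (2.91) and Gp1bb, 2 chains of the von Willebrand factor receptor, ended as calls without library 22, control library 1 or control library 2, Gp9 at 1.12, 2.97 and 2.30, while Gp9 stood at 3.93 without control library 3. Gp1bb had 1 count over the controls and 28 over 4T07, 24.8-fold, exact 95% counting interval 4.10 to 1013, and fitted changes of 2.46 to 3.63 without those libraries. Pf4, a platelet chemokine, had 207, 233 and 209 against 275, 154 and 129 CPM (-0.38, adjusted p = 0.287). The integrin Itga2b had 2.94, 3.33 and 3.15 against 15.3, 4.13 and 2.95 CPM (1.105, adjusted p = 0.134), and 0.02 without library 22. Its level in library 22 was far above the controls, the 4.13 CPM was slightly above them, and the 2.95 CPM lay within their range.

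B-lineage calls rested on library 22. Of 10 B-cell genes 3 were called higher and of 9 tested plasma cell genes 5, where 4.32% of all genes were. Without library 22 none of either list was called. Ms4a1, which encodes CD20, had 4.61, 4.12 and 4.88 CPM in controls and 43.5, 6.68 and 4.97 CPM in 4T07 scaffolds, and Ighm, the mu heavy chain, 60.6, 57.0 and 61.7 against 463, 124 and 74.4. Libraries 23 and 24 lay above the highest control for both, library 24 by little, and library 22 several times above them. The changes of Ms4a1, Ighm and Cd79b, a chain of the B-cell receptor, were 1.86, adjusted p = 0.0977, then 1.71, adjusted p = 0.0511, and 1.95, adjusted p = 0.0659, and without library 22 0.22, 0.60 and 0.42. These 3 calls also ended without any 1 control library, at 1.78 to 1.91, 1.66 to 1.75 and 1.77 to 2.12. Cd79a, the other signaling chain of the receptor (1.24, adjusted p = 0.477), was not called. Of the antibody genes, Igkc, the kappa light chain, had 50.8, 35.9 and 26.9 against 412, 83.5 and 41.8 CPM (2.05, adjusted p = 0.0622), 0.58 without library 22 and 1.99 and 1.83 without control libraries 2 and 3, none of them called. Jchain (1.51), Ighg1 (2.76) and Ighg2b (2.595) were at 0.22, 1.14 and 1.495 without library 22, and Jchain and Ighg2b also ended as calls without any 1 control library (1.41 to 1.58 and 2.34 to 2.91). Ighg2c had 2 counts over the controls and 36 over 4T07, 15.9-fold, exact 95% counting interval 4.10 to 137, and its call ended without library 22 or control library 2 (fitted 2.25 and 2.91). Sdc1, a plasma cell surface protein that other cells also carry, was at 59.99 to 98.3 and 112 to 137 CPM (0.44, adjusted p = 0.14).

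Cell cycle genes behaved like the B-lineage genes, with library 22 the highest 4T07 library for all 24 members. Of the 24, 5 were called higher, where 4.32% of all genes were. Without library 22 there were none, and 8 when libraries were scaled by totals. Mki67, the proliferation antigen, had 45.7, 40.1 and 45.96 CPM in controls and 185, 37.2 and 30.8 CPM in 4T07 scaffolds, so that libraries 23 and 24 lay below the lowest control. Its change of 0.76, adjusted p = 0.419, was -0.51 without library 22. Rrm2, a subunit of ribonucleotide reductase (1.76, adjusted p = 0.0163), and Ccna2, cyclin A2 (1.33, adjusted p = 0.027), went to 0.82 and 0.51. Mcm2 (1.17), Ube2c (1.37) and Nusap1 (1.24) went to 0.81, 0.37 and 0.31, and Ube2c and Nusap1 also ended as calls without control library 1 or 2 (1.29 to 1.32 and 1.07 to 1.14). Top2a (0.51, adjusted p = 0.371) and Cdk1 (0.03, adjusted p = 0.978) were not called.

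In the T-cell and natural killer lists the share of calls was near or under the 8.55% of all genes. Of 13 tested T-cell genes Cd3g alone was called, at 0.629, 0.317 and 0.472 CPM in controls and 2.45, 2.16 and 0.621 CPM in 4T07 scaffolds (1.72, adjusted p = 0.0617), and not without library 22, 23, 2 or 3 (1.37 to 1.71). Its partners Cd3e (1.42 to 2.73 against 2.17 to 4.16 CPM) and Cd3d (2.06 to 2.52 against 1.40 to 5.63 CPM) had changes of 0.52, adjusted p = 0.439, and 0.23, adjusted p = 0.793. Of 10 natural killer and cytotoxic genes none was called, with Ncr1, the receptor NKp46, at 0.13, adjusted p = 0.739, Klrb1c at -0.54, adjusted p = 0.346, and the activating receptor Klrk1 at -0.97, adjusted p = 0.0447, whose fold was just under 2.

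Of 12 transcription factors of granulocyte and blood formation 4 were called higher, where 4.32% of all genes were, and 3 without library 22. Cebpe, needed for the step from primary to secondary granules, had 1.68, 1.11 and 1.102 CPM in controls and 21.5, 6.09 and 6.83 CPM in 4T07 scaffolds, with no overlap. Its change was 3.01 ± 0.66 (SE), adjusted p = 0.00776, and 2.19 without library 22. Myb, a factor of immature blood cells, rose, with 1.68 to 3.01 CPM in controls against 5.75 to 33.8 CPM (2.57, adjusted p = 0.00798), 1.51 without library 22. Gfi1, a repressor needed for neutrophil formation (2.08, adjusted p = 0.0667), was not called without library 22, 1 or 2 (1.42, 1.91 and 1.72) and stood at 2.90 without control library 3. Cebpa (0.17, adjusted p = 0.542), Cebpb (0.67, adjusted p = 0.141) and Cebpd (0.46, adjusted p = 0.252) were not called.

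In the lists of the resident foreign-body response, 1 of 14 macrophage genes was called higher and 1 lower, and of the 8 giant cell genes and 7 monocyte genes none, where 8.55% of all genes were called. The lists had medians of -0.19, 0.23 and -0.06. Arg1, arginase 1, had 2.73, 1.90 and 2.36 CPM in controls, 2.32 CPM in library 22, and 14.2 and 21.9 CPM in libraries 23 and 24. Library 22 lay within the control range, so the change of 2.30 ± 0.57 (SE), adjusted p = 0.0157, came from the other 2 libraries, and it was 2.82 without library 22 and 1.64 without library 24. Ido1, an enzyme that breaks down tryptophan, shared this order, with 0.734, 1.18 and 2.80 CPM in libraries 22, 23 and 24 and 2 counts over all controls, 13.3-fold, exact 95% counting interval 3.37 to 115, and was not called without library 24, 1 or 2 (fitted 2.69, 3.04 and 3.71). Of the macrophage surface genes, Adgre1 (F4/80) had 119 to 172 against 151 to 245 CPM (0.30, adjusted p = 0.392), Csf1r 465 to 484 against 385 to 400.3 (-0.43, adjusted p = 0.0487) and Cd68 817 to 972 against 644 to 699.8 (-0.56, adjusted p = 0.0977), none of them past a 2-fold change. Folr2, the lower call (-2.28, adjusted p = 0.0807), had 3.000, 5 and 9 counts in controls against 2, 1.000 and 1.000 and was not called without any 1 of the 6 libraries (-2.46 to -1.90). The fusion gene Dcstamp was at 0.67, adjusted p = 0.0475, Ocstamp at 0.17, adjusted p = 0.743, and the acid phosphatase Acp5 at -0.82, adjusted p = 0.00745. Among monocyte genes, Ly6c2 was at 0.26, adjusted p = 0.668, Ccr2 at -0.06, adjusted p = 0.872 and Plac8 at -0.01, adjusted p = 0.989. Tgfb1 is in the list of suppressor effectors, of which 2 of 13 were called higher, where 4.32% of all genes were. It rose by 1.04 (adjusted p = 0.0256), but by 0.82 and 0.97 without library 24 or 1. Nos2 had no more than 5 counts in any library.

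Dendritic cell genes had 4 of 12 called lower and none higher, where 4.23% of all genes were called lower, and 3 without library 22. Il12b, the interleukin-12 p40 subunit, had 6.08, 5.38 and 5.51 CPM in controls and 1.96, 0.786 and 1.40 CPM in 4T07 scaffolds, with no overlap (-2.13 ± 0.33 (SE), adjusted p = 0.00131). Siglech, a receptor of plasmacytoid dendritic cells, had 14.5, 16.2 and 16.2 against 9.54, 5.31 and 4.66 CPM (-1.40 ± 0.25 (SE), adjusted p = 0.00253), and both were lower without library 22, -2.46 and -1.79. Ccr7, the receptor for homing to lymph nodes, fell, with 3.48 to 5.87 CPM in controls against 1.24 to 3.55 CPM (-1.29, adjusted p = 0.0481). It stood at -1.96 without library 22 and was not called without library 23, 24 or 1 (-1.11 to -1.02), nor was the chemokine Ccl17 (-1.45) without library 22, 23, 24, 1 or 3 (-1.497 to -1.04). Flt3 (-0.34, adjusted p = 0.646), Zbtb46 (0.12, adjusted p = 0.709) and Xcr1 (-0.48, adjusted p = 0.374) were not called.

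Chemokines that attract monocytes, eosinophils and lymphocytes were lower where they changed. Of 17, 4 were called lower, where 4.23% of all genes were, and 4 without library 22. When a trend with transcript length was removed, 2 were called lower, and the median change went from -0.75 to -0.10. Ccl3 was not called there (adjusted p = 0.19 in that edgeR fit). Ccl11, eotaxin-1, had 42.0, 24.4 and 22.5 CPM in controls and 3.67, 5.11 and 7.92 CPM in 4T07 scaffolds, where library 22 was the lowest. Its change was -2.59 ± 0.51 (SE), adjusted p = 0.00461, and -2.31 without library 22. Ccl6, an abundant myeloid chemokine, fell, with 909.7 to 1134 CPM in controls against 418 to 506 CPM (-1.33, adjusted p = 0.000777), -1.29 without library 22. Ccl3 (-1.18) and Ccl4 (-1.77) were highest in control library 2 and were not called without it (-0.72 and -0.67), and Ccl4 also not without library 22 or 23 (-1.49 and -1.86). Ccl2, the main monocyte attractant, had 32.5, 37.2 and 27.2 against 12.1, 22.6 and 44.1 CPM (-0.46, adjusted p = 0.528).

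Interferon-stimulated genes had 6 of 30 called lower and none higher, where 4.23% of all genes were called lower. Without library 22 there were 6 lower calls, and the median change with all libraries was -0.11. Ifitm3, a membrane protein that blocks virus entry, had 451, 329.8 and 266 CPM in controls and 178, 129 and 122 CPM in 4T07 scaffolds (-1.47 ± 0.26 (SE), adjusted p = 0.00279). Ifit1 (-1.30, adjusted p = 0.00632) and Xaf1 (-1.17, adjusted p = 0.00602) fell as well, while Ifit2 (-0.41, adjusted p = 0.484) and Ifit3 (-0.79, adjusted p = 0.194) did not pass. Ifi27l2a (-1.101) was not called without library 23 or 1 (-0.99 to -0.97), Isg15 (-1.03) without library 23, 1 or 2 (-0.97 to -0.89), and Bst2 (-1.07) without library 22 or 1 (-0.99 and -0.69). When libraries were scaled by totals, 3 of the 30 were called lower, and 2 when a trend with transcript length was removed, where Ifi27l2a was at -0.17 and Ifitm3 at -0.78.

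In the antigen presentation list, 2 of 17 genes were called higher and 1 lower, where 4.32 and 4.23% of all genes were. The counts were the same without library 22. Tap1, a subunit of the peptide transporter, had 27.3, 39.6 and 32.1 CPM in controls and 84.4, 93.2 and 134 CPM in 4T07 scaffolds, and Tapbp, tapasin, 34.0, 55.6 and 57.1 against 111, 128 and 135 CPM. For both, all 3 4T07 libraries were above all controls and library 22 was the lowest of the 3. The changes were 1.503 ± 0.26 (SE), adjusted p = 0.00201, and 1.20 ± 0.18 (SE), adjusted p = 0.00121, against 1.64 and 1.29 without library 22. H2-Eb1, a class II chain, fell, with 108 to 170.3 CPM in controls against 41.5 to 79.9 CPM (-1.31, adjusted p = 0.0154), -1.53 without library 22. The class I genes H2-K1 (0.35, adjusted p = 0.549), H2-D1 (0.73, adjusted p = 0.0361) and B2m (-0.23, adjusted p = 0.563) were not called; reads of H2 genes can be split between near-identical copies.

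Of the stromal lists, the fibroblast and matrix lists had shares of calls near the 8.55% of all genes. Of 12 fibroblast genes Dpt, dermatopontin, was the 1 call, with 259.7, 249 and 275 CPM in controls and 131, 125 and 148 CPM in 4T07 scaffolds (-1.11 ± 0.17 (SE), adjusted p = 0.00125), while Col1a1 (0.16, adjusted p = 0.633), Col1a2 (0.17, adjusted p = 0.678) and Col3a1 (-0.50, adjusted p = 0.175) were not called. Of 25 matrix genes Mmp3, stromelysin 1 (392, 591 and 505 against 234, 257 and 236 CPM, -1.18, adjusted p = 0.0007), and Col14a1 (-1.08, adjusted p = 0.00156) were called lower, and Col4a1 (0.36, adjusted p = 0.396), Col4a2 (0.73, adjusted p = 0.016) and Col5a1 (0.20, adjusted p = 0.541) were not called. Scaled by totals, Dpt and 1 of the 2 matrix calls had folds under 2. Of 10 adipocyte genes 4 were called lower, where 4.23% of all genes were. Adipoq, adiponectin, had 62.7, 50.8 and 65.5 CPM in controls and 25.4, 24.4 and 21.1 CPM in 4T07 scaffolds (-1.49 ± 0.31 (SE), adjusted p = 0.0061), Fabp4 fell, with 444 to 618 CPM in controls against 232 to 289 CPM (-1.16, adjusted p = 0.00136), and Plin1, the coat protein of fat droplets, was at -1.26, adjusted p = 0.0194. Retn (-1.22) was not called without library 24, 1 or 3 (-1.15 to -0.91), Plin4 (-0.92, adjusted p = 0.133) was not called at all, and Fabp4 was not called with the length trend removed (-0.46).

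Cldn5, the tight junction protein of endothelium, rose from 3.57, 5.07 and 4.41 CPM to 17.7, 11.6 and 15.2 CPM (1.61 ± 0.30 (SE), adjusted p = 0.00312), 1.48 without library 22. It was 1 of 2 calls among 10 endothelial genes, both higher, where 4.32% of all genes were called higher. The other, Flt4, the receptor of lymphatic vessels (1.25, adjusted p = 0.052), was not called without library 22, 23, 2 or 3 (1.08 to 1.14), and Pecam1 (-0.50, adjusted p = 0.0718), Cdh5 (-0.06, adjusted p = 0.903) and Kdr (0.11, adjusted p = 0.732) were not called. None of 8 smooth muscle genes (Acta2 -0.22, adjusted p = 0.554, Tagln -0.01, adjusted p = 0.988, Myh11 -0.42, adjusted p = 0.29) and none of 6 Schwann cell genes (Mbp -0.28, adjusted p = 0.286) was called. Skeletal muscle genes differed among controls: Acta1 had 0.420, 114 and 104 CPM in controls and 125, 65.7 and 75.8 CPM in 4T07 scaffolds (0.16, adjusted p = 0.948), and control library 1 had almost none of this list. Of 11 genes 2 were called lower, where 4.23% of all genes were. Mb, myoglobin, had 0, 13.0 and 9 counts in controls against 1.000, 0 and 1.000 counts and was not called without library 22, 23 or 2 (fitted -3.63 to -2.83). Tnni2 (-1.13) was not called without library 23, 24, 2 or 3 (-1.003 to -0.78) and stood at -1.73 without library 22. Ckm (0.79, adjusted p = 0.586) and Myh4 (2.41, adjusted p = 0.11) were not called. In the complement list 2 of 16 genes were called lower, where 4.23% of all genes were. C1ra, a subunit of the first complement enzyme, was at 385, 337 and 303 against 159, 148 and 142 CPM (-1.36 ± 0.18 (SE), adjusted p = 0.000777). C5ar1 (-1.13) was not called without control library 2 (-0.72), while C3 (0.10, adjusted p = 0.729) and C4b (-0.71, adjusted p = 0.00724) were not called.

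**Figure D3:**
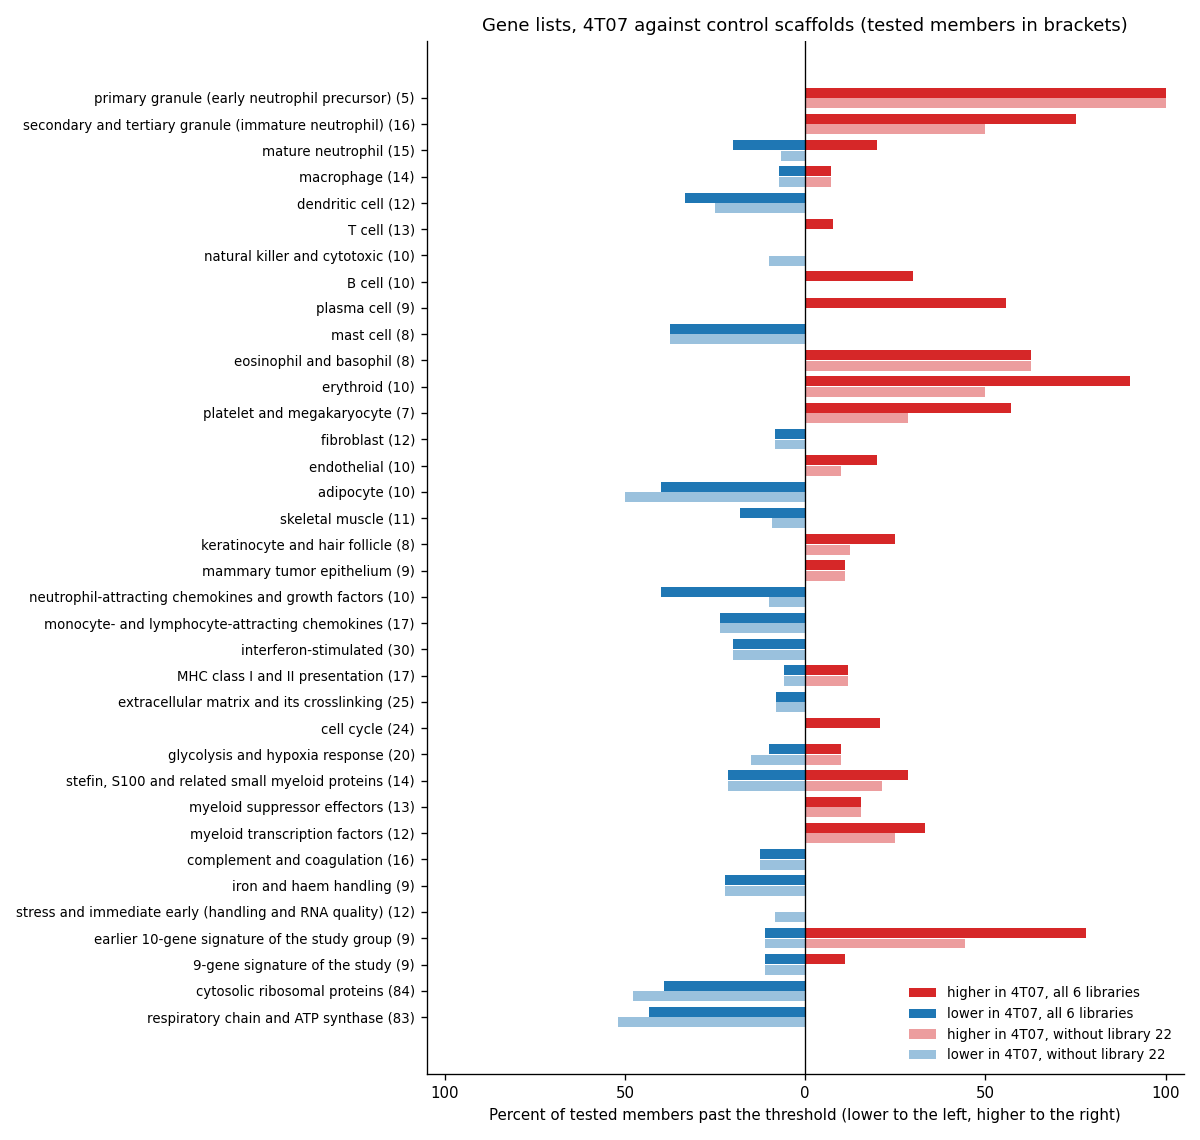
Percent of the tested members of each gene list called higher (red, to the right) or lower (blue, to the left) in 4T07 against control scaffolds, with all 6 libraries in full color and without library 22 in pale color, and with lists that had no call in either fit left out. Primary granule and eosinophil and basophil genes kept their share, B-cell, plasma cell and cell cycle genes had none left, and ribosomal and respiratory chain genes had a larger lower share without library 22.

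The 12 largest falls among genes with a mean of at least 5 CPM and no overlap included several genes of mitochondrial, ribosomal and membrane proteins. Tmem258, a subunit of the oligosaccharyltransferase, had 326, 327 and 326 CPM in controls and 109.6, 71.9 and 55.0 CPM in 4T07 scaffolds. The controls were almost equal, all 4T07 libraries were well under them, and library 22 was the nearest. The change was -2.21 ± 0.20 (SE), adjusted p = 0.000145. Trappc3, a vesicle tethering subunit, had 153, 139 and 156 against 36.6, 38.9 and 29.5 CPM (-2.25 ± 0.22 (SE), adjusted p = 0.00026). Ndufb6 and Atp5md, subunits of complex I and of the ATP synthase, were at -2.59, adjusted p = 0.00245, and -2.09, adjusted p = 0.00327, and the mitochondrial import factor Timm8b at -2.28, adjusted p = 0.00242, with -3.33, -2.53 and -2.999 without library 22. Rpl22l1, a ribosomal protein paralog, was at -2.63, adjusted p = 0.0127, Bcl2a1d, a survival gene with near-identical copies, at -2.31, adjusted p = 0.00121, and Lrrn4cl at -2.18, adjusted p = 0.0007. The predicted genes Gm28438 (-2.57) and Gm14221 (-2.55), and Ccl11 above, complete the 12 with Ftl1. All 12 were still called without library 22.

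Ferritin genes fell together. Fth1 and Ftl1, the heavy and light chains that store iron, were the 2 of 9 iron-handling genes called. Both were lower, where 4.23% of all genes were called lower. Fth1 had 1696, 2867 and 2432 CPM in controls and 1059.6, 1114 and 875 CPM in 4T07 scaffolds, and Ftl1 189, 453 and 381 against 102, 97.3 and 29.8 CPM, with no overlap for either. The changes were -1.34 ± 0.22 (SE), adjusted p = 0.00156, and -2.30 ± 0.43 (SE), adjusted p = 0.00337. Ferritin genes have many processed copies, so reads may have been shared with them. Hmox1, haem oxygenase 1 (-0.40, adjusted p = 0.391), and the iron exporter Slc40a1 (0.34, adjusted p = 0.469) were not called. Among 20 glycolysis and hypoxia genes, Gapdh (-1.61, adjusted p = 0.00343) and Pgk1 (-1.72, adjusted p = 0.0136), also genes with processed copies, were called lower and Egln3 (1.06, adjusted p = 0.0202) and the lactate transporter Slc16a3 (1.22, adjusted p = 0.0487) higher. The shares over all genes were 4.23% lower and 4.32% higher. Egln3 had a fold under 2 without library 23 or 1 (0.93 to 0.98), and Slc16a3 was not called without library 23, 24, 1 or 3 (0.91 to 1.19) and stood at 1.83 without control library 2. Slc2a1 (0.27, adjusted p = 0.374), Hk2 (-0.01, adjusted p = 0.987) and Pfkl (0.33, adjusted p = 0.418) were not called.

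Ribosomal and respiratory chain genes, listed after these falls had been seen, were lower as groups of unequal members. Over all genes 4.23% were called lower. Of 84 cytosolic ribosomal protein genes 33 were called lower and none higher, with a median of -0.83, and 40 without library 22. Of 83 respiratory chain and ATP synthase genes 36 were called lower and none higher, with a median of -0.996, and 43 without library 22. These counts were 25 and 27 when libraries were scaled by totals. Ndufa1, a complex I subunit chosen after its values were seen, had 388, 431 and 429 CPM in controls and 128, 117 and 94.6 CPM in 4T07 scaffolds (-2.03 ± 0.18 (SE), adjusted p = 0.000145).

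The change was also graded with the length of the transcript. Over 9920 protein-coding genes with a mean of at least 5 CPM and a known length, the median change was -0.91 for the 61 genes whose longest coding transcript is under 500 bases, -0.71 for 504 genes of 500 to 1000 bases and -0.11 for 1948 genes of 1000 to 2000 bases. It was 0.03 for 3985 genes of 2000 to 4000 bases, 0.10 for 2921 of 4000 to 8000 and 0.11 for 501 longer ones. Of the genes under 500 bases 42.6% were called lower, against 28.6, 6.26, 2.23, 1.27 and 0.798% in the longer bins. Without library 22 the first 2 medians were -1.05 and -0.76. When the smooth trend with length was removed from each library for the 75.5% of tested genes with a known length, an alternative chosen after seeing the data, 14 ribosomal and 16 respiratory chain genes were called lower and 1 of each higher, with medians of -0.36 and -0.44. Under that alternative Tmem258 stood at -1.49, Atp5md at -1.07, Ftl1 at -1.87 and Fth1 at -0.83, all still called except Fth1, whose fold was under 2, while Mpo stood at 6.75 and Ngp at 6.64. What lies behind the trend was not tested.

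**Figure D4:**
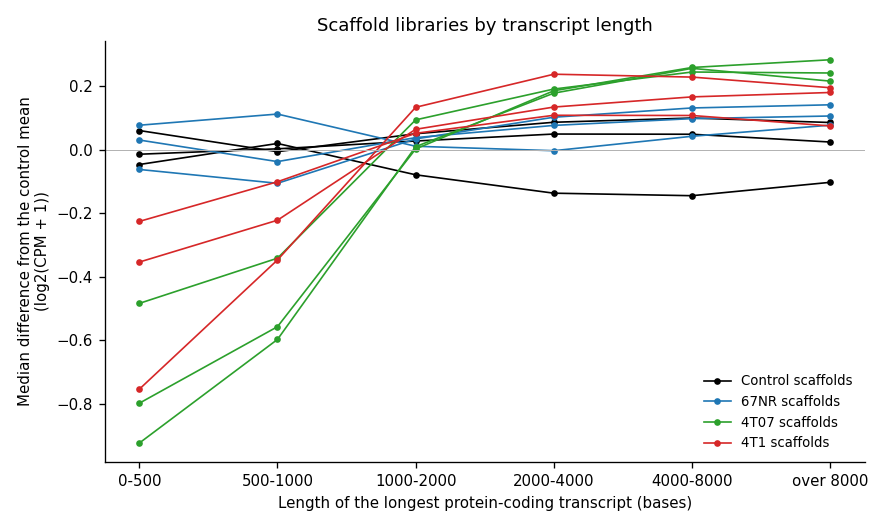
Median difference of each of the 12 scaffold libraries from the control mean, as log2(CPM + 1), for protein-coding genes in 6 bins of transcript length, with 1 line per library in black (control), blue (67NR), green (4T07) or red (4T1). All 3 4T07 libraries and 4T1 library 35 lie lowest for transcripts under 1000 bases, and the 4T07 libraries lie above 0 for transcripts over 2000 bases, where controls lie between -0.15 and 0.10.

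Genes of small secreted and calcium-binding proteins of myeloid cells went both ways. In the list of stefins, S100 proteins and related genes, 4 of 14 were called higher and 3 lower, where 4.32 and 4.23% of all genes were. Cstdc5, a stefin-type protease inhibitor, had 2.73, 16.8 and 1.89 CPM in controls and 126, 43.6 and 52.5 CPM in 4T07 scaffolds, and its relative Stfa2 0.839, 3.48 and 0 CPM against 19.4, 8.85 and 11.5 CPM. Control library 2 was the highest control for both, and the groups did not overlap. The changes were 3.19 ± 0.59 (SE), adjusted p = 0.00303, and 3.01 ± 0.65 (SE), adjusted p = 0.00722, with 4.84 and 4.94 without control library 2, 2.59 and 2.64 without library 22, and 2.37 for Stfa2 without control library 3. Ifitm6 rose, with 4.25 to 11.3 CPM in controls against 20.2 to 138 CPM (2.74, adjusted p = 0.00954), 1.40 without library 22, and Wfdc21 (2.09, adjusted p = 0.0291) was not called there (0.57). Wfdc17, a small protease inhibitor of macrophages, fell from 342, 239 and 280.4 to 94.4, 73.5 and 107 CPM (-1.82 ± 0.25 (SE), adjusted p = 0.00085), S100a4 from 2620.1 to 4294 to 1289 to 1880.2 CPM (-1.22, adjusted p = 0.0187) and S100a11 from 330.2 to 625 to 225 to 263 CPM (-1.06, adjusted p = 0.00651). Without control library 1, in which both were highest, S100a4 and S100a11 were not called (-0.89 and -0.72), and with the length trend removed none of the 3 falls passed the fold limit (-0.97, -0.33 and -0.16). Stfa3 was at 0.72, adjusted p = 0.329 and Stfa1 had no count in the 6 libraries.

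Rhox5, a homeobox gene of the X chromosome that many mouse tumors express, was called higher. It had no count in any control and 47.5, 5.11 and 1.40 CPM in libraries 22, 23 and 24, at least 34.2-fold higher (adjusted p = 0.0118), and at least 6.19-fold without library 22. The 4T07 primary tumors had 19.3, 5.62 and 2.54 CPM, which is within the range of the scaffolds, and 4T07 lungs had 40.9, 14.9 and 9.33 CPM and 4T07 spleens 77.6, 87.8 and 27.8 CPM, while control lungs and spleens had no count. Rhox5 had been listed with genes of tumor epithelium, but each 4T07 spleen was above every 4T07 tumor. Which cells its reads came from was not tested. The other genes of that list were not called, with Epcam at 6.08, 1.90 and 20.9 CPM in controls and 7.58, 9.83 and 6.68 CPM in 4T07 scaffolds, Krt8 at -0.50, adjusted p = 0.673 and Krt18 at 0.35, adjusted p = 0.802. Only 3 genes had at least 20 CPM in each 4T07 tumor and no count in any control lung or spleen: Csn2, the milk protein beta-casein, Gm36696 and Syt8. Their summed level was 0.210, 0.317 and 6.77 CPM in control scaffolds and 1.101, 3.73 and 0.932 CPM in 4T07 scaffolds, against 75.5, 155 and 264 CPM in the tumors. The mean of 4T07 minus control was -0.51 CPM. An exact two-sided permutation test over the 20 splits cannot give a p under 0.1, so no p is given. Control library 3 held its 6.77 CPM in Csn2 alone, and without it the mean difference was 1.66 CPM. Csn2 had 44 counts over the control scaffolds, whose mice had no tumor, and 24 over the 4T07 scaffolds. The set therefore cannot show whether RNA of tumor cells was present in a scaffold.

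Lor, the cornified envelope protein loricrin, had no count in any control and 31.8, 2.56 and 0.311 CPM in libraries 22, 23 and 24, at least 22.0-fold higher, and at least 2.73-fold without library 22. This leaves library 22 with nearly all of its reads. The keratinocyte list had 2 of 8 called higher, where 4.32% of all genes were. These were Lor and Dsp, desmoplakin, with Dsp at 2.73, 1.74 and 11.2 CPM against 53.2, 13.8 and 5.75 CPM (2.05, adjusted p = 0.0753). Dsp was not called without library 22, 1 or 2 (0.74, 1.79 and 1.61) and stood at 3.26 without control library 3. Krt5 (1.47, 0.9501 and 7.398 against 15.9, 6.09 and 3.26 CPM) and Krt14 (1.68, 0.9501 and 5.82 against 19.9, 4.13 and 2.17 CPM), keratins of basal epidermis, were highest in library 22 and not called (1.20, adjusted p = 0.367, and 1.48, adjusted p = 0.21), nor was Krt1 (adjusted p = 0.403), with 2 counts over the controls and 13, all in library 22, over 4T07. Whether skin was taken with a scaffold was not tested.

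Both gene signatures were chosen on scaffolds, the 9-gene one on the libraries of this series, so its values here are not independent evidence. Of the 9 tested genes of the earlier 10-gene signature, 7 were called higher and Ccr7 lower, where 4.32 and 4.23% of all genes were. Without library 22, 4 were called higher. Camp, Ltf and Elane, with Chil3 near its limit, held without that library, S100a8, S100a9 and Pglyrp1 did not, and Ccl22 (2.52, 2.69 and 4.56 against 1.71, 1.38 and 2.64 CPM, -0.91, adjusted p = 0.102) was not called. Bmp15 had at most 2 counts in any library and was not tested. Of the 9-gene signature, which the study selected to set 4T1 scaffolds apart from the others, these included, 1 was higher and 1 lower. Dhx9, an RNA helicase, had 165, 164 and 170.0 CPM in controls and 96.6, 85.3 and 90.2 CPM in 4T07 scaffolds (-1.04 ± 0.13 (SE), adjusted p = 0.0007), with a fold just under 2 without control library 1 (-0.9996) or when scaled by totals. Soga1 rose from 19.3, 19.5 and 20.3 to 48.4, 44.6 and 40.4 CPM (1.02 ± 0.16 (SE), adjusted p = 0.0013), with a fold just under 2 without library 22, 23 or 2 (0.97, 0.99 and 0.99). For both, the replicates of a group lay close together. Pja2 fell short of a 2-fold change (-0.71, adjusted p = 0.0033), and Dusp12 (-0.21, adjusted p = 0.35), Fhl1 (-0.27, adjusted p = 0.692), Ifitm1 (0.71, adjusted p = 0.155), Ndufs1 (-0.07, adjusted p = 0.784), Slc1a3 (-0.22, adjusted p = 0.579) and Spon2 (-0.09, adjusted p = 0.842) were not called. None of 12 stress and immediate early genes was called, with Fos at 0.07, adjusted p = 0.938, Fosb at 0.63, adjusted p = 0.455 and Jun at 0.24, adjusted p = 0.434.

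Setting 4T07 directly against the other tumor lines gave the difference between tumor types. Against 67NR scaffolds 1292 genes were called (6.58%), 603 higher and 689 lower in 4T07, and against 4T1 scaffolds 238 (1.21%), 85 higher and 153 lower. All 5 primary granule genes and 11 of the 16 secondary granule genes were higher than in 67NR scaffolds, and no gene of either list was called higher than in 4T1 scaffolds, while Hp, haptoglobin, was called lower (-1.16, adjusted p = 0.0949). Mpo had 0.924, 1.44 and 0.491 CPM in 67NR scaffolds and 50.4, 9.51 and 7.18 CPM in 4T1 scaffolds, so the 67NR values were near those of controls, and 4T1 libraries lay above them. The difference of 4T07 from 67NR was 6.56, adjusted p = 0.00188, and from 4T1 2.07, adjusted p = 0.17, while 4T1 against controls gave 4.67, adjusted p = 0.189. Ngp had 2.22, 2.57 and 0.819 CPM in 67NR and 136, 43.6 and 26.2 CPM in 4T1 scaffolds, with 4T07 minus 67NR at 6.96, adjusted p = 0.00116, and 4T07 minus 4T1 at 1.82, adjusted p = 0.189. A p that misses the threshold does not show that 4T07 and 4T1 scaffolds were alike in these genes.

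Some of the genes lower in 4T07 than in control scaffolds were also lower than in 4T1 scaffolds. Tmem258 had 312, 377 and 316 CPM in 67NR and 193, 206 and 203 CPM in 4T1 scaffolds, and 4T07 minus 4T1 was -1.40, adjusted p = 0.0134. Trappc3 (-1.28, adjusted p = 0.0258), Clec4d (-1.25, adjusted p = 0.0457), Ccl11 (-2.34, adjusted p = 0.0508) and Ftl1 (-2.12, adjusted p = 0.0472) were also lower in 4T07 than in 4T1 scaffolds, and Tap1 higher (1.000, adjusted p = 0.0739). Ribosomal genes were called lower than in 67NR scaffolds in 32 of 84 cases and lower than in 4T1 scaffolds in 1. Of the 10 adipocyte genes, 7 were lower than in 4T1 scaffolds. The summed level of that list was 1354, 1251 and 1420 CPM in 4T1 scaffolds, above the 881, 976 and 1175 CPM of controls. It was 637, 518 and 478 CPM in 4T07 scaffolds.

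Other tissues of the 4T07 mice give the scale of these levels. Mpo had 0.872, 0.541 and 0.162 CPM in control lungs and 755, 901 and 668 CPM in 4T07 lungs, 9.71, 15.7 and 8.41 CPM in control spleens and 826, 971 and 1107 CPM in 4T07 spleens, and 123, 23.9 and 16.1 CPM in 4T07 tumors. Elane had 235, 287 and 127 CPM in 4T07 lungs, 428, 483 and 482 in 4T07 spleens and 40.1, 10.3 and 3.10 in tumors. Both transcripts were thus lower in each 4T07 scaffold than in any 4T07 lung or spleen. The labels do not link tissues to animals, so the difference of the 4T07 change between tissues was tested without pairing, as an interaction in 1 model. It had an adjusted p under 0.10 in 5318 genes against lung (27.1%) and 4411 against spleen (22.5%). For Ngp the scaffold change minus the lung change was -4.04, adjusted p = 0.00888, and minus the spleen change -0.24, adjusted p = 0.892. For Mpo these were -3.68, adjusted p = 0.081, and 0.15, adjusted p = 0.935.

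**Figure D5:**
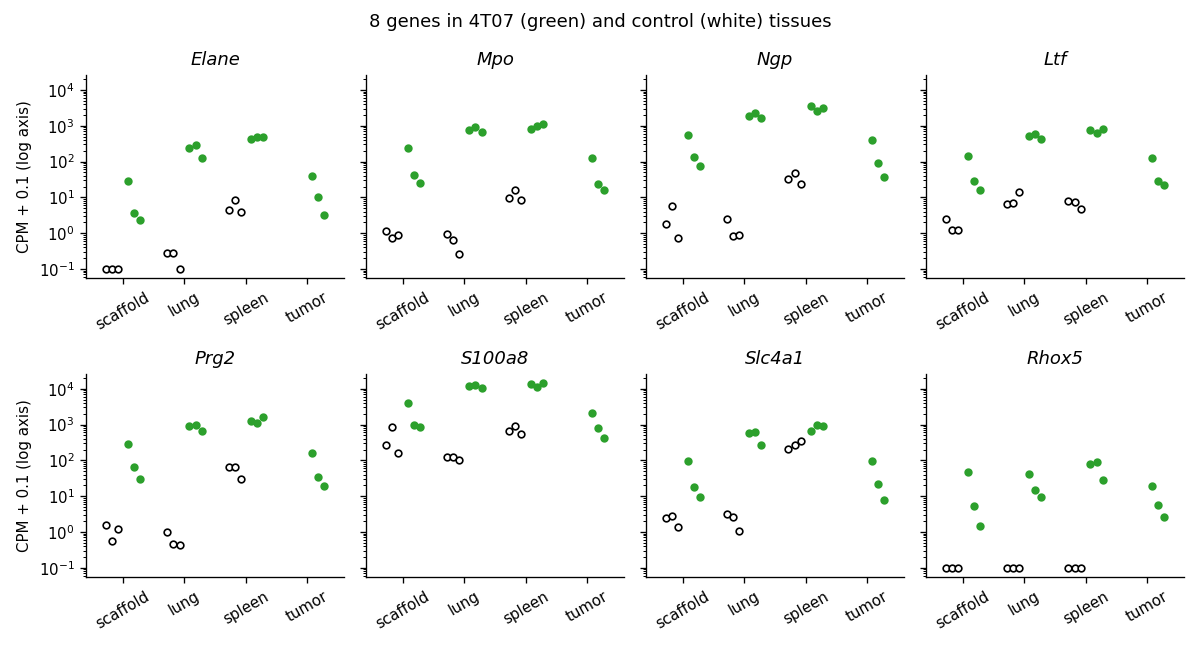
CPM plus 0.1 on a log axis for 8 genes in control (white) and 4T07 (green) scaffolds, lungs and spleens and in 4T07 tumors, 1 point per library. For granule genes such as Mpo and Ngp all 4T07 points lie above all control points in each tissue, and the 4T07 scaffolds lie below the 4T07 lungs and spleens for Mpo and Elane.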

How the data were processed

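The deposited table holds whole-number counts per gene symbol that the authors made from QuantSeq 3' RNA libraries, and per the submitters' processing notes reads were trimmed with Trim Galore 0.5.0, aligned with STAR 2.6.0 and counted with featureCounts. The genome build, the annotation, the use of strand and the collapsing of molecular identifiers are not given in the sources used here. Counts from a 3' kit do not scale with transcript length, so CPM, computed on library totals, compares libraries and not genes. No columns of the authors' own comparisons were used.

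From the counts, 120 lines that repeated a symbol were summed, and each gene whose counts summed to more than 10 in these 6 libraries was fitted with edgeR 4.0.16 (TMM, quasi-likelihood F test, 12 scaffold libraries in 4 groups, 8 residual degrees of freedom, Benjamini-Hochberg adjustment over all genes tested). The study gives 3 mice per condition, and the labels tie no library to a mouse, so p-values measure the spread between libraries within groups. In the scaffold fit this spread is pooled over all 4 groups and is not that of the 6 compared libraries alone. Fitted on only these 6 libraries, 1561 genes were called, 749 higher and 812 lower. The difference between tissues was fitted on 18 libraries of scaffold, lung and spleen. Alternatives were DESeq2 1.42.0, limma 3.58.1 with voom, robust and 6-library fits, other scalings and count filters, each library left out in turn and, chosen after seeing the data, removal of the trend with transcript length (longest protein-coding transcript in GENCODE vM1, matched by current or older symbol). All were run in R 4.3.3, and the fit was tested on simulated data. The depths of 4767440 to 8175380 counts put the floor of 3 counts at 0.367 to 0.629 CPM per library.

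Named genes were the 12 with the largest change in each direction among called genes with no overlap and a mean of at least 5 CPM, of each list the called members (at most 6, smallest adjusted p first) and the first 3 members, and both signatures. Other called members are also named, and Lyz2, Cybb, Csf3, Csf3r, Cxcr2, Tpsb2, Kit, Ccr3, Il5ra, Alas2, Epb42, Gpnmb, Hp, Ly6g and Ndufa1 were added with their values in view. The comparison and the gene lists were chosen with earlier results of these data known, and the ribosomal and respiratory lists after the falls were seen. Some list members are counted but not reported here by name. Promoter windows are from RefSeq (GRCm38.p6).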

Additional observations from a re-analysis of the deposited data

Results flagged for a closer look

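The change from control to 4T07 differed between scaffold and another tissue in several of the genes with the largest changes, by the edgeR interaction test with adjusted p over all genes tested. Over all genes 27.1% differed from lung and 22.5% from spleen. Of the 12 largest fitted increases, 5 were smaller in scaffolds than in lungs. The scaffold change minus the lung change was -4.04 for Ngp (6.38 against 10.43, adjusted p = 0.00888), -3.90 for Camp (5.69 against 9.59, adjusted p = 0.0376), -3.76 for Prg2 (6.82 against 10.59, adjusted p = 0.0644), -3.68 for Mpo (6.74 against 10.43, adjusted p = 0.081) and -4.61 for Prtn3 (5.26 against 9.89, adjusted p = 0.081). The difference was not past the threshold for Elane (-1.61, adjusted p = 0.923), Fcnb (-2.04, adjusted p = 0.678), Ms4a3 (-2.48, adjusted p = 0.656) and Epx (-2.63, adjusted p = 0.6003), all with few or no counts in control scaffolds. Against spleen none of these genes had a difference with an adjusted p under 0.10.

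The falls of several genes were larger in scaffolds than in spleens. These genes were chosen for their large falls in the same scaffold libraries, and this choice by itself favors a larger fall in scaffolds. The direction of these differences is therefore not independent evidence. The scaffold change minus the spleen change was -4.19 for Lrrn4cl (-2.18 against 2.01, adjusted p = 0.000111), -2.43 for Tmem258 (-2.21 against 0.22, adjusted p = 0.00467), -1.30 for Trappc3 (-2.25 against -0.96, adjusted p = 0.0398) and -3.21 for Ndufb6 (-2.59 against 0.62, adjusted p = 0.0411). It was -2.82 for Ftl1 (-2.30 against 0.52, adjusted p = 0.0482), -2.61 for Atp5md (-2.09 against 0.52, adjusted p = 0.0692) and -2.05 for Timm8b (-2.28 against -0.23, adjusted p = 0.0877). Lrrn4cl and Tmem258 also differed from lung, by -1.70 (adjusted p = 0.0338) and -1.35 (adjusted p = 0.0726), with changes of -0.48 and -0.86 there. The causes were not tested.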

How the results depend on the processing

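Against the 1679 calls (848 higher, 831 lower), the alternatives gave 974 calls (416 higher) where at least 10 counts were required in each library, a filter that removes genes near 0 in controls, and 540 lower calls with libraries scaled by their totals. Leaving out 1 library at a time gave 1261 to 1686 calls, 613 to 831 higher and 648 to 899 lower. Without a count filter the fit called 1832 of 31015 genes and gave every gene the prior dispersion. Its p-values therefore do not follow the spread of each gene and are too small for genes with a wide spread. For some genes, such as Csf1r, its adjusted p was the largest of all alternatives (0.222). DESeq2 called 1413 genes, 1384 of them among the 1679, limma with voom 1820 and the length-corrected fit 1495, with 59.2% of calls higher. Of 129 called genes among the lists and rules, 112 kept the call with DESeq2, 110 with voom, 111 with the robust fit, 104 without the length trend, 87 without library 22 and 99, 96 and 112 without control libraries 1, 2 and 3. Il1b reversed without control library 2, and its log2 fold change was -2.18 to 0.0576 over the libraries left out. With 1 library left out, the genes with a difference of the 4T07 change between scaffold and lung were 4328 to 5305, and with a difference of the 4T07 change between scaffold and spleen 3238 to 4333. For the genes of the 4T07 tumor in scaffolds the difference was -1.62 to 1.66 CPM with 1 library left out (controls left out as an alternative chosen after seeing the data), positive without control library 3, and 0 genes were left at 100 CPM in each tumor or with no count in any 67NR scaffold, so these gave no value. No paired analysis was possible because the labels link no libraries across groups and each carries its own number. At these depths a gene under 0.629 CPM cannot be told from 0 in the shallowest library.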
